A study of Mus musculus with 6 samples.

Results

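The genes of MHC class I antigen presentation and of the immunoproteasome were examined in tibialis anterior (TA) muscle RNA-seq libraries. Their 10 members were chosen by symbol: the heavy chains H2-K1 and H2-D1, the light chain B2m, the peptide transport and loading genes Tap1, Tap2 and Tapbp, the immunoproteasome subunits Psmb8, Psmb9 and Psmb10, and the transactivator Nlrc5. They are 10 of the 55401 gene identifiers in the counts table, and all 10 passed the low-count filter. The 6 libraries came from male C57BL/6 mice with the genotype HSA-MCM-Bmal1-/-, in which tamoxifen induces deletion of Bmal1, a core circadian clock gene, in skeletal muscle fibres through a human skeletal actin promoter. Tamoxifen was given at 2 mg per day for 5 days to mice housed until 12 to 16 weeks of age. AAV was injected into the TA 4 weeks later, and the muscle was taken 4 weeks after that. Group AAV-GFP (n = 3) received a GFP vector and group AAV-RBM20 (n = 3) a vector with Rbm20, a titin splicing regulator, so both groups carried the knockout, tamoxifen and an AAV. The study's methods give a higher vector dose for RBM20 than for GFP, and dose and transgene cannot be told apart. No uninjected or Bmal1-intact muscle was analysed here.

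MHC class I molecules show peptides from the cell's own proteins to CD8 T cells. The proteasome cuts proteins into peptides, the TAP transporter carries the peptides into the endoplasmic reticulum, and tapasin helps to load them onto a heavy chain bound to beta-2 microglobulin. Interferon is known to raise most genes of this pathway and to exchange 3 constitutive catalytic proteasome subunits for the inducible subunits of the immunoproteasome. Mature muscle fibres are known for low class I levels, while leukocytes and endothelial cells in the tissue carry more.

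Promoter sequences are shown because known interferon-responsive elements lie in this family. RefSeq promoter windows on GRCm38.p6, from 250 bases before to 50 after the gene start, were found for 8 of the 10 members, and were not found for Tap2 and Nlrc5. These were searched on both strands for the core of the interferon-stimulated response element (ISRE; GAAA, then 2 bases of any kind, then GAAA), TTCNNNGAA (the gamma-activated site, GAS), CCAAT (the CCAAT box) and AANNGAAA (the core bound by interferon regulatory factors, IRF). The last was added after the sequences had been seen, and every ISRE core also holds an IRF core. Matches upstream of the start are in capitals, written 5′ to 3′ on the gene's strand.
H2-K1: atctccacagTTTCACTTctgcacctaa
H2-D1: atctcctcagTTTCACTTctgcacctaa
B2m: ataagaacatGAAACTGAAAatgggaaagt
Psmb8: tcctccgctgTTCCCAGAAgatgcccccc
The H2-K1 stretch is chr17:34000420-34000447 on the minus strand, and the H2-D1 stretch is chr17:35262934-35262961 on the plus strand. Both show the IRF core on the opposite strand, within flanking bases that are nearly the same in the 2 heavy chain genes. The B2m stretch, chr2:122147538-122147567 on the plus strand, holds an ISRE core. The Psmb8 stretch, chr17:34198088-34198116 on the plus strand, holds a GAS match. The GAS pattern is its own reverse complement, so any match of it reads on both strands. Among the 8 member promoters, the IRF core was found in 3, the ISRE core in 1, the GAS in 1 and the CCAAT box in 6. The CCAAT matches of Tap1 and Psmb9 are the same bases, since their windows overlap. Of 32544 promoter windows of the same length, 23.9% held the IRF core, 3.45% the ISRE core, 8.33% the GAS and 37.4% the CCAAT box. These are matches of letters and not measured binding sites.

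Total counts ranged from 41400132 to 54226618 per library. Levels are given as CPM, read counts scaled to the effective size of the library. Rbm20 stood at 166 ± 3.20 CPM with the GFP vector and at 484 ± 71.0 CPM with its own vector (SD, n = 3 each), and the groups did not overlap (edgeR adjusted p = 0.121). Bmal1, whose deletion all 6 samples share, was at 35.0 ± 3.63 and 26.3 ± 1.63 CPM (SD, n = 3), with an edgeR adjusted p of 0.618. The fibre markers Ckm and Acta1 were at 9659 to 20687 CPM, which fits the labelled tissue. Replicate 3 of each group stood apart from the other replicates of its group. Mitochondrially encoded genes took 12.5% of counts in AAV-GFP replicate 3 and 11.4% in AAV-RBM20 replicate 3, against 6.41% to 7.66% in the other 4 libraries. Titin (Ttn) took 4.48% and 9.05% of counts in these libraries, against 16.9% to 17.8% in the others. Member values are therefore also given without AAV-RBM20 replicate 3, or without both.

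The comparison asked which class I presentation genes differed when Rbm20 was delivered. No member passed the threshold, and the highest level of every member was in AAV-RBM20 replicate 3. By the quasi-likelihood test of edgeR, with p adjusted over 17222 genes after Benjamini and Hochberg, 0 of 10 members passed an adjusted p of 0.05, and 0.0% of all genes tested did. Rbm20, the delivered gene, did not pass either, although its groups did not overlap. The paper reports a significant rise of Rbm20 with this vector. The main test thus missed the delivered gene, and a member that did not pass may still differ. At an unadjusted p under 0.05 there were also 0 members in edgeR, against 4.08% of all genes higher and 3.82% lower. DESeq2 had 1 member at that level, Tap1, against 8.65% of all genes. The adjusted p of the members ranged from 0.642 to 0.926. All 10 had a positive log2 fold change, as did 51.3% of all genes tested, with a median of 0.38 against 0.009 over all genes. Without AAV-RBM20 replicate 3 the median was -0.09, with 4 members positive and 6 negative, against 52.7% of all genes positive. Without both libraries numbered 3 it was 0.02, with 5 positive and 5 negative, against 51.8% positive.

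AAV-RBM20 replicate 3 was the highest of the 6 libraries for 10 of 10 members. Of all genes tested, 16.5% were highest in that library. Its CPM was at least 2 times the mean of AAV-RBM20 replicates 1 and 2 for 8 of the 10 members and for 4.11% of all genes tested, a description of 1 library that was made after its values had been seen. The group ranges did not overlap for 1 member, Psmb9, which was higher in AAV-RBM20, while 7.71% of all genes had AAV-RBM20 wholly above AAV-GFP and 9.04% wholly below. With the replicate number as a block, 0 members passed an adjusted p of 0.05, against 0.145% of all genes, and 2, H2-D1 and B2m, had an unadjusted p under 0.05, against 8.92% of all genes higher at that level.

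**Figure D1:**
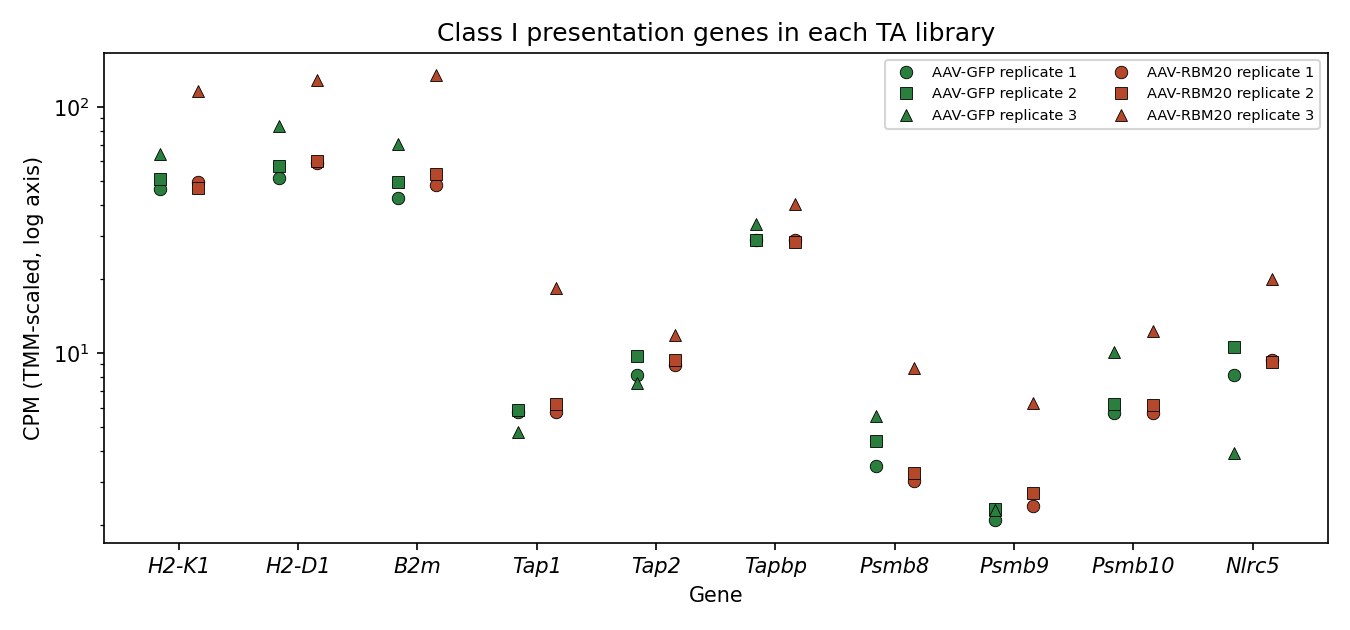
CPM on a log axis of the 10 members in each of the 6 libraries, coloured by group, with the replicate number as the symbol. The AAV-RBM20 replicate 3 triangle is the highest point for all 10 genes, while AAV-RBM20 replicates 1 and 2 lie near AAV-GFP replicates 1 and 2.

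H2-K1 and H2-D1 encode the classical class I heavy chains that hold the peptide. H2-K1 (ENSMUSG00000061232; GRCm38 chromosome 17, 33996017 to 34000347, minus strand) was measured at 46.5, 50.9 and 64.2 CPM in AAV-GFP replicates 1, 2 and 3 and at 49.6, 46.6 and 116 CPM in AAV-RBM20 replicates 1, 2 and 3. H2-D1 (ENSMUSG00000073411; chromosome 17, 35262730 to 35267499, plus strand) was measured at 51.6, 57.5 and 83.5 CPM in AAV-GFP and 59.3, 60.2 and 129 CPM in AAV-RBM20. The groups overlapped for both genes, and replicate 3 was the highest of its group in each. The log2 fold change was 0.40 ± 0.35 (SE) for H2-K1, with an edgeR adjusted p of 0.744. For H2-D1 it was 0.36 ± 0.33 (SE; edgeR adjusted p = 0.748). Their signs turned without AAV-RBM20 replicate 3, to -0.16 for H2-K1 and -0.10 for H2-D1. Without both libraries numbered 3 they were -0.01 and 0.14. The heavy chain genes are near-copies of other class I genes. Windows of 100 bases were searched in other genes' transcripts on both strands. Of the windows of H2-D1 transcripts 4.09% also occurred there, against 0 of 2262 windows for H2-K1. This leaves some doubt about the counts of H2-D1, the size of which was not measured.

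B2m (ENSMUSG00000060802; chromosome 2, 122147686 to 122153083, plus strand) encodes beta-2 microglobulin, the light chain needed by every class I heavy chain. It was measured at 42.7, 49.6 and 70.8 CPM in AAV-GFP and at 48.2, 53.3 and 134 CPM in AAV-RBM20. The order of the libraries was close to that of the heavy chains, again with both replicates 3 on top and with overlapping groups. For B2m the log2 fold change was 0.53 ± 0.40 (SE), with a 95% interval of the fold from 0.768 to 2.72 and an edgeR adjusted p of 0.708. Without AAV-RBM20 replicate 3 it was -0.09, and without both libraries numbered 3 it was 0.14. Across the 6 libraries, which share the step between replicate 3 and the rest, log2 CPM of B2m and H2-D1 had a Pearson correlation of 0.994, the highest among pairs of members. On the scale of CPM per kilobase of merged exons, which allows levels of different genes to be set side by side, B2m stood at 63.2 in AAV-GFP, H2-D1 at 24.9 and H2-K1 at 18.3.

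Tap1 and Tap2 encode the subunits of the peptide transporter. Tap1 (ENSMUSG00000037321; chromosome 17, 34187553 to 34197225, plus strand) was measured at 5.76, 5.87 and 4.77 CPM in AAV-GFP and at 5.74, 6.19 and 18.4 CPM in AAV-RBM20. Here AAV-GFP replicate 3 was the lowest library and AAV-RBM20 replicate 3 the highest by far, at 3.08 times the mean of the other 2 AAV-RBM20 libraries. Tap1 had the largest log2 fold change of the members, 0.89 ± 0.43 (SE), with a 95% interval of the fold from 0.930 to 3.68 and an edgeR adjusted p of 0.642. It was 0.14 without AAV-RBM20 replicate 3, with an edgeR adjusted p of 0.827, and 0.04 without both libraries numbered 3.

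Tap2 (ENSMUSG00000024339; chromosome 17, 34203527 to 34216321, plus strand) was measured at 8.12, 9.70 and 7.54 CPM in AAV-GFP and at 8.91, 9.38 and 11.8 CPM in AAV-RBM20. Its difference was smaller than that of Tap1, with a log2 fold change of 0.25 ± 0.17 (SE) and an edgeR adjusted p of 0.690. For Tap2 it was 0.12 without AAV-RBM20 replicate 3 and 0.04 without both libraries numbered 3. Tapbp (ENSMUSG00000024308; chromosome 17, 33915899 to 33929292, plus strand), which encodes tapasin, was measured at 28.9, 28.8 and 33.6 CPM in AAV-GFP and at 28.9, 28.1 and 40.2 CPM in AAV-RBM20. Tapbp varied least between libraries, and its log2 fold change was 0.09 ± 0.17 (SE; edgeR adjusted p = 0.884) and a 95% interval of the fold from 0.814 to 1.39. Without AAV-RBM20 replicate 3 it was -0.09, and without both it was -0.01. Tapbp shares exon sequence with Zbtb22 on the same strand and Gm19412 on the other, and Tap2 with Gm20496 and Gm15821 on the other strand, which leaves some doubt about their counts. Of the 100-base windows, 12.7% for Tapbp and 5.07% for Tap2 also occurred in other genes' transcripts, read on either strand.

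**Figure D2:**
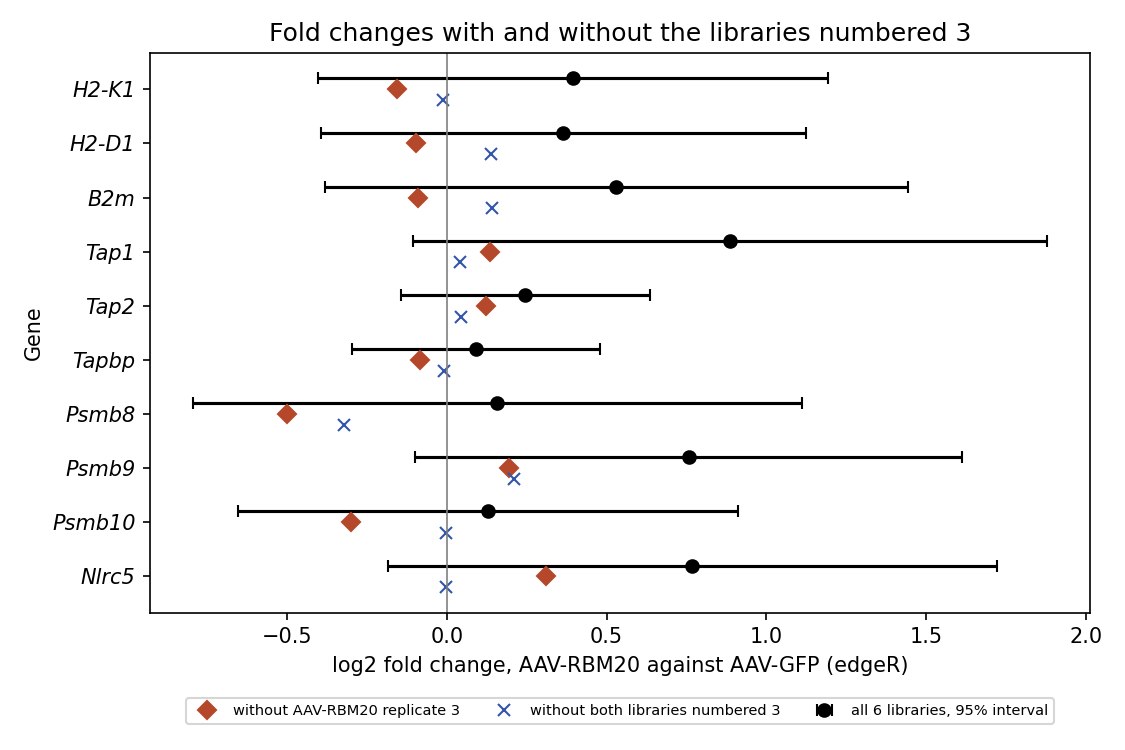
The log2 fold change of each member in AAV-RBM20 against AAV-GFP, with its 95% interval from all 6 libraries (black), without AAV-RBM20 replicate 3 (diamonds) and without both libraries numbered 3 (crosses). All 10 intervals include 0, and the values without replicate 3 lie between -0.50 and 0.31.

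Psmb8, Psmb9 and Psmb10 encode the catalytic subunits of the immunoproteasome, known as beta5i, beta1i and beta2i. Psmb8 (ENSMUSG00000024338; chromosome 17, 34197721 to 34201454, plus strand) was measured at 3.47, 4.41 and 5.53 CPM in AAV-GFP and at 3.02, 3.26 and 8.69 CPM in AAV-RBM20. AAV-RBM20 replicates 1 and 2 were below all AAV-GFP libraries and replicate 3 above them. Psmb8 had a log2 fold change of 0.16 ± 0.41 (SE; edgeR adjusted p = 0.925), and it was -0.50 without AAV-RBM20 replicate 3 and -0.32 without both libraries numbered 3. Psmb8 overlaps Gm20496 on the opposite strand.

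Psmb9 (ENSMUSG00000096727; chromosome 17, 34181987 to 34187764, minus strand) was measured at 2.09, 2.32 and 2.30 CPM in AAV-GFP and at 2.38, 2.71 and 6.26 CPM in AAV-RBM20. These were the lowest values among the members, from 85 to 121 reads in AAV-GFP. The lowest AAV-RBM20 library was just above the highest AAV-GFP library, by less than the spread within either group. The log2 fold change was 0.76 ± 0.37 (SE; edgeR adjusted p = 0.646) and a two-sided exact permutation p of 0.1, the smallest that 3 against 3 samples allow. It was 0.19 without AAV-RBM20 replicate 3 and 0.21 without both libraries numbered 3. Psmb9 and Tap1 are neighbours on opposite strands, with RefSeq starts 226 bases apart and 275 shared bases in their promoter windows. Their exons overlap, so without a known strand setting of the counting a part of their reads is uncertain. Of the Psmb9 windows of 100 bases, 6.73% also occurred in Tap1 transcripts, read on either strand. Across the 6 libraries their log2 CPM had a Pearson correlation of 0.977.

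Psmb10 (ENSMUSG00000031897; chromosome 8, 105935735 to 105938444, minus strand) was measured at 5.71, 6.23 and 10.1 CPM in AAV-GFP and at 5.70, 6.17 and 12.2 CPM in AAV-RBM20. The groups were almost level library by library, and both replicates 3 were higher than the other 4 libraries. Psmb10 accordingly had a log2 fold change of 0.13 ± 0.34 (SE; edgeR adjusted p = 0.926.) It was -0.30 without AAV-RBM20 replicate 3 and -0.003 without both libraries numbered 3.

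The inducible subunits were next set against the constitutive subunits they replace, Psmb5 (beta5), Psmb6 (beta1) and Psmb7 (beta2), as a ratio of counts per exon base within each library, which does not depend on the scaling of libraries. None of the constitutive subunits passed the threshold, and all 3 overlapped between the groups, with log2 fold changes of -0.16 ± 0.15 (SE) for Psmb5, -0.13 ± 0.18 (SE) for Psmb6 and -0.35 ± 0.20 (SE) for Psmb7, and edgeR adjusted p values of 0.760, 0.833 and 0.657. Psmb8 stood to Psmb5 at 0.0322, 0.0400 and 0.0377 in AAV-GFP, and at 0.0285, 0.0313 and 0.0748 in the RBM20 group. The Psmb9 to Psmb6 ratio was 0.0178, 0.0204 and 0.0134 in AAV-GFP, and for the RBM20 group 0.0208, 0.0223 and 0.0481. The Psmb10 to Psmb7 ratio was 0.0850, 0.0981 and 0.0994 in AAV-GFP, and for the RBM20 group 0.1003, 0.105 and 0.183. AAV-RBM20 replicate 3 had the highest ratio for each pair. The log2 fold change of Psmb7, the denominator of the third ratio, was larger in size than that of Psmb10, its numerator. The groups did not overlap for the Psmb9 and Psmb10 ratios. The mean log2 ratio differed by 0.15 for Psmb8, 0.73 for Psmb9 and 0.41 for Psmb10, with two-sided exact permutation p values of 1.0, 0.1 and 0.1, or 1.0, 0.15 and 0.15 after Benjamini-Hochberg adjustment over the 3 ratios. Without AAV-RBM20 replicate 3 these differences were -0.29, 0.34 and 0.13, and without both libraries numbered 3 they were -0.265, 0.17 and 0.17. Of the 100-base windows of the constitutive genes, 22.2% for Psmb5 and 19.98% for Psmb7 also occurred in other genes' transcripts, read on either strand. Those of Psmb7 were all shared with Nek6, which overlaps it on the opposite strand. The exon lengths of all annotated transcripts set the scale. Both points leave doubt about the levels of these ratios. Their order between libraries does not depend on the lengths.

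**Figure D3:**
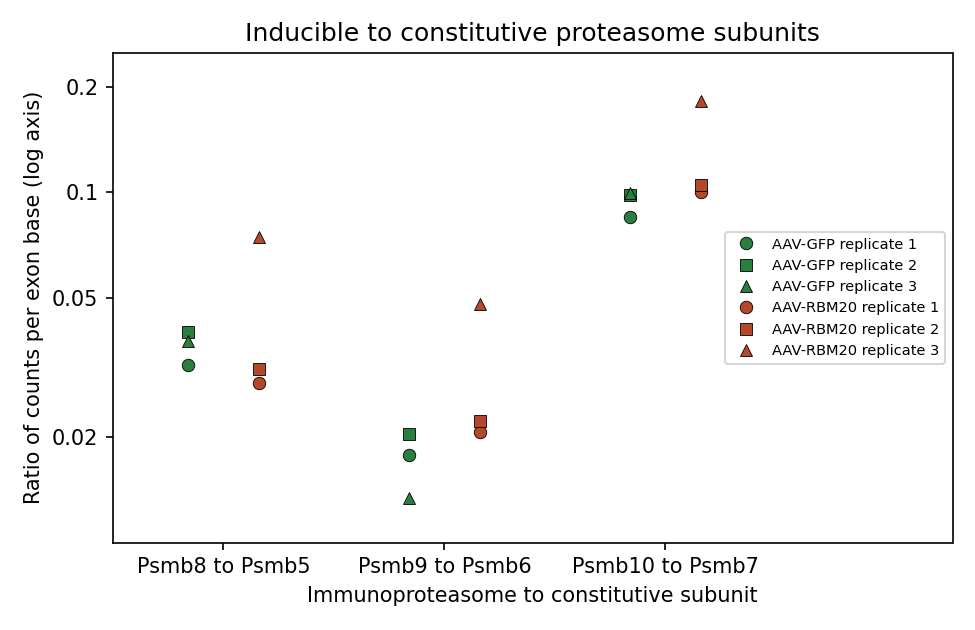
Ratio of counts per exon base of each immunoproteasome subunit to its constitutive counterpart, on a log axis, for each of the 6 libraries. AAV-RBM20 replicate 3 has the highest ratio for all 3 pairs, up to 0.183 for Psmb10 to Psmb7.

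Nlrc5 (ENSMUSG00000074151; chromosome 8, 94434356 to 94527272, plus strand) encodes the transactivator known for driving class I genes. It was measured at 8.17, 10.5 and 3.93 CPM in AAV-GFP and at 9.35, 9.23 and 19.9 CPM in AAV-RBM20. The libraries numbered 3 were at opposite ends, the lowest and the highest of all 6, and differed by 5.06-fold, while the other 4 lay close together. The log2 fold change was 0.77 ± 0.41 (SE), with a 95% interval of the fold from 0.880 to 3.298 and an edgeR adjusted p of 0.657. It was 0.31 without AAV-RBM20 replicate 3 and -0.003 without both libraries numbered 3. Nlrc5 overlaps 9330175E14Rik on the opposite strand.

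The members differed in the rank of 1 library, AAV-GFP replicate 3, among the AAV-GFP libraries, described here without a test. AAV-GFP replicate 3 was the highest AAV-GFP library for 6 members, H2-K1, H2-D1, B2m, Tapbp, Psmb8 and Psmb10, at 1.16 to 1.69 times the mean of the other 2. It was the lowest for 3 members, Tap1, Tap2 and Nlrc5, at 0.820, 0.847 and 0.420 times that mean, and lay between the other 2 for Psmb9. In AAV-RBM20 replicate 3 every member was higher than in the other AAV-RBM20 libraries, from 1.29 times the mean of the other 2 for Tap2 to 3.08 times for Tap1.

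Other genes of the pathway came from lists of 88 genes, of which none had an edgeR adjusted p under 0.05 (lowest 0.618). Of 18 other class I and class I-like heavy chains, 13 were tested, 12 had a positive log2 fold change (median 0.17, against 0.009 and 51.3% positive over all genes), and 1, H2-T24, had an unadjusted p under 0.05. Without AAV-RBM20 replicate 3 the list had 7 positive and 6 negative, with a median of 0.02 and 0 genes at that level. H2-T24, a non-classical class I gene, had a log2 fold change of 0.61 ± 0.25 (SE; edgeR adjusted p = 0.618.) H2-T23, which encodes the Qa-1 molecule recognised by NK cell receptors, was at 7.16, 8.79 and 9.56 CPM in AAV-GFP and 8.43, 8.46 and 23.2 CPM in AAV-RBM20. Like the members, it was highest in AAV-RBM20 replicate 3, and its log2 fold change of 0.65 ± 0.39 (SE; edgeR adjusted p = 0.660), was -0.002 without that library. H2-Q10, a secreted class I protein made in liver, went the other way, at -0.86 ± 0.45 (SE) and an edgeR adjusted p of 0.655. It rested on 17 to 43 counts in AAV-GFP and 9 to 26 in AAV-RBM20, and the groups overlapped.

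The peptide loading and trimming list (8 genes, 8 tested) had a median log2 fold change of 0.04. The median was -0.21 without AAV-RBM20 replicate 3 and -0.04 without both libraries numbered 3. This list had 5 positive and 3 negative, and 0 genes at an unadjusted p under 0.05 in edgeR. Its chaperones Calr and Canx, which fold class I heavy chains, had log2 fold changes of -0.25 ± 0.12 (SE) and -0.22 ± 0.15 (SE), and Lnpep, an aminopeptidase that trims peptides in endosomes, 0.26 ± 0.14 (SE). Their edgeR adjusted p values were 0.647, 0.685 and 0.657. Of the 16 other 20S proteasome subunits and assembly factors, 14 had a negative log2 fold change, where 51.3% of all genes were positive, with 0 genes at an unadjusted p under 0.05. Their median was -0.20, and -0.09 without both libraries numbered 3. Without AAV-RBM20 replicate 3 it was -0.25, with 16 negative, where 52.7% of all genes were positive. The alpha subunit genes Psma5 and Psma3 stood at -0.32 ± 0.16 (SE) and -0.35 ± 0.20 (SE) and the beta subunit gene Psmb2 at -0.23 ± 0.15 (SE), with edgeR adjusted p values of 0.641, 0.657 and 0.665. Psme1 and Psme2, which form the interferon-inducible PA28 activator, had log2 fold changes of 0.21 ± 0.12 (SE) and 0.10 ± 0.27 (SE), with edgeR adjusted p values of 0.658 and 0.929. They were 0.14 and -0.25 without AAV-RBM20 replicate 3. The other 2 activator genes, Psme3 and Psme4, had log2 fold changes of -0.15 and -0.27, with edgeR adjusted p values of 0.713 and 0.700.

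Among 13 class I transcription factors, with a median log2 fold change of 0.02, 2 had an unadjusted p under 0.05, and both were lower in AAV-RBM20, as were 3.82% of all genes tested. There was 1 without AAV-RBM20 replicate 3, where 1020 of 17497 genes tested were at that level in either direction. Rfxap, a subunit of the RFX complex that binds class I and class II promoters, had a log2 fold change of -0.37 ± 0.13 (SE), and Atf1, a factor that binds cyclic AMP response elements, one of -0.38 ± 0.14 (SE), each with an edgeR adjusted p of 0.618 and without overlap of the groups. Irf1, an interferon-induced activator of class I genes, was at 10.5, 7.69 and 7.11 CPM in AAV-GFP and 9.75, 9.43 and 21.4 CPM in AAV-RBM20, again with AAV-RBM20 replicate 3 on top, and had a log2 fold change of 0.68 ± 0.33 (SE) and an edgeR adjusted p of 0.642. It was 0.19 without that library and 0.08 without both libraries numbered 3.

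Of 13 interferon receptors and signal transducers, 11 were tested, with 8 positive and 3 negative, and 0 had an unadjusted p under 0.05 in edgeR. Their median log2 fold change was 0.21. It was 0.13 without AAV-RBM20 replicate 3 and -0.04 without both libraries numbered 3. Jak1, a kinase of interferon receptors, had a log2 fold change of -0.28 ± 0.12 (SE). Ifngr2 and Ifnar2, subunits of the type II and type I interferon receptors, had log2 fold changes of -0.30 ± 0.15 (SE) and 0.36 ± 0.18 (SE). The edgeR adjusted p values of these 3 genes were 0.632, 0.654 and 0.654. The interferon genes Ifng and Ifnb1 were too low to be tested, and Ifnb1 had 0 counts in every library, which allows up to 0.0746 CPM in the library with the highest floor of 3 counts.

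Summed pan-leukocyte and macrophage markers were also highest in AAV-RBM20 replicate 3, while summed endothelial, myofibre and adipocyte markers were not. Leukocytes carry far more class I and immunoproteasome RNA than muscle fibres, and in whole muscle a change of cell number and a change of RNA per cell cannot be told apart. The summed level of 5 pan-leukocyte markers ranged from 9.15 to 23.8 CPM in AAV-GFP and from 18.3 to 61.5 CPM in AAV-RBM20. All 5 were highest in AAV-RBM20 replicate 3. The 10 macrophage and monocyte markers summed to 30.7 to 100 CPM in AAV-GFP and 65.6 to 143 CPM in AAV-RBM20, and 9 of them were highest in AAV-RBM20 replicate 3. In both lists AAV-GFP replicate 3 was the highest AAV-GFP library and lay above AAV-RBM20 replicates 1 and 2. None of the marker genes passed the threshold in edgeR over all 6 libraries. With the replicate block, Ptprc and Ccr2, which encode the leukocyte antigen CD45 and a monocyte chemokine receptor, were higher in AAV-RBM20, with edgeR adjusted p values of 0.0479 and 0.0251.

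Values without both libraries numbered 3 follow, with no test of one list against another. In the remaining 4 libraries 6 of 10 macrophage markers, 2 of 5 pan-leukocyte markers and 4 of 6 fibro-adipogenic progenitor markers passed an edgeR adjusted p of 0.05, all higher in AAV-RBM20, against 4.0% of all genes tested. Of 8 myofibre markers 2, Tnnt3 and Tnni2, passed as lower, at log2 fold changes of -0.40 and -0.52. The median log2 fold change was 1.16 over the macrophage markers and 1.06 over the pan-leukocyte markers, and it was 0.02 over the 10 members, of which 0 passed in edgeR and 0 had an unadjusted p under 0.05, a level that 18.5% of all genes reached. Among the 88 other listed pathway genes, not all of which were tested, 4 passed in these 4 libraries, where 4.0% of all genes tested did. Fcgrt, the neonatal Fc receptor gene, was higher at a log2 fold change of 0.44 and Lnpep at 0.29, with edgeR adjusted p values of 0.0168 and 0.0465. Uggt1, which senses misfolded glycoproteins, was lower at -0.40 and Jak1 at -0.29, with edgeR adjusted p values of 0.00693 and 0.0286.

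The 13 genes of CD8 T cell and NK cell recognition, the cells that read class I molecules, were near the detection limit. Together they had 20, 25 and 82 counts in AAV-GFP replicates 1, 2 and 3 and 63, 38 and 406 in AAV-RBM20. They summed to 8.36 CPM in AAV-RBM20 replicate 3 and to 0.492 to 1.56 CPM in the other 5 libraries. Klrk1, the NKG2D receptor gene and the only one of the 13 that passed the low-count filter, had a log2 fold change of 2.34 ± 0.94 (SE; edgeR adjusted p = 0.618), and 0.76 without AAV-RBM20 replicate 3. The 4 B cell markers summed to at most 1.65 CPM and the 5 neutrophil markers to at most 1.98 CPM in any library, and the neutrophil gene Ly6g had 0 counts. Endothelial markers, in contrast, summed to 144 and 226 CPM in AAV-GFP and AAV-RBM20 replicate 3 and to 318 to 359 CPM in the other 4 libraries. Fibro-adipogenic progenitor markers summed to 369 to 684 CPM in AAV-GFP and 527 to 803 CPM in AAV-RBM20, myofibre markers to 94173 to 102634 CPM and 61343 to 90132 CPM. Erythroid markers summed to 27.3 CPM in AAV-RBM20 replicate 3 and to 2.69 to 10.6 CPM in the other 5 libraries. Adipocyte markers summed to 61.2 to 84.2 CPM in AAV-GFP and 55.4 to 78.9 CPM in AAV-RBM20. The part of these cells in the class I values over all 6 libraries was not tested.

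**Figure D4:**
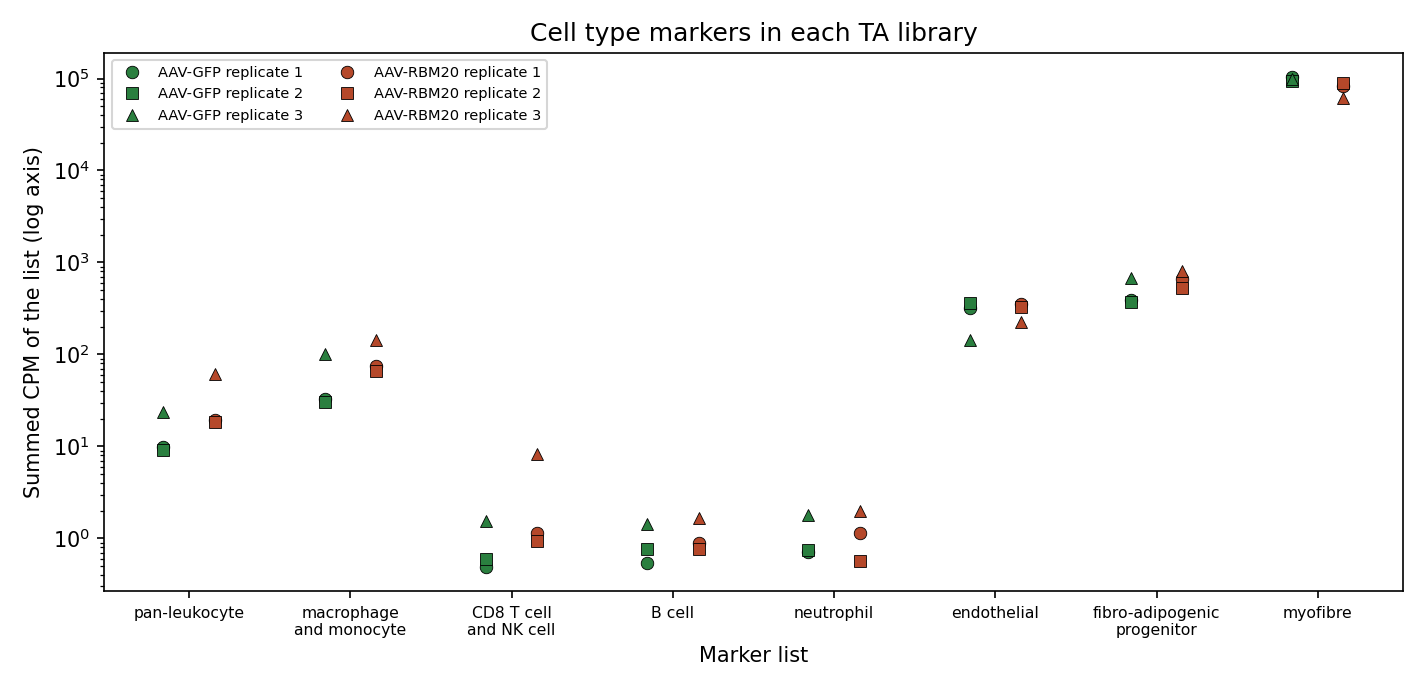
Summed CPM on a log axis of 8 marker lists in each of the 6 libraries. AAV-RBM20 replicate 3 is the highest library for the pan-leukocyte, macrophage and CD8 T and NK cell lists, at 61.5, 143 and 8.36 CPM. It is also the highest for the B cell, neutrophil and fibro-adipogenic progenitor lists, at 1.65, 1.98 and 803 CPM, and the lowest for the myofibre list. AAV-GFP replicate 3 is the highest AAV-GFP library for each list in which AAV-RBM20 replicate 3 is the highest library.

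Genes with the pattern most like the members were sought among 11541 other genes whose mean log2 CPM was 1 or more, by the Pearson correlation over the 6 libraries with the mean standardised log2 CPM of the members. The 5 highest were Ccdc82, H2-T23, Gbp7, Ppargc1a and Irgm1, with correlations of 0.998, 0.998, 0.994, 0.992 and 0.992. Gbp7 and Irgm1 encode interferon-inducible GTPases of cell-autonomous defence. Irgm1 was at 13.7, 15.0 and 16.4 CPM in AAV-GFP and 14.5, 15.7 and 75.4 CPM in AAV-RBM20. Gbp7 was at 11.02, 13.4 and 16.3 CPM in AAV-GFP and 10.9, 13.7 and 50.4 CPM in AAV-RBM20. Ppargc1a, which encodes a coactivator of mitochondrial biogenesis, varied far less, from 57.5 to 62.1 CPM in AAV-GFP and from 59.8 to 80.1 CPM in AAV-RBM20. These correlations over 6 libraries rest on AAV-RBM20 replicate 3.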

How the data were processed

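Ribosomal RNA-depleted stranded libraries of 6 TA samples were mapped by the authors to mm10 with HISAT2 and counted per Ensembl gene with HTSeq. The raw counts they deposited were used. Strand setting, annotation release and versions are not given in the sources used here. A second deposited table, of DESeq2-normalised values, was not used. Symbols and positions came from GENCODE M21 (GRCm38), which holds 55141 of 55401 identifiers, and levels per length used merged exons. H2-T9 had no entry in it. CPM was computed with TMM factors.

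Groups came from the titles. Nothing in the labels says that samples are separate animals, so p-values measure the spread between these samples. The study's source data for its protein blots list mice with the GFP vector in 1 leg and the RBM20 vector in the other. Whether the sequenced samples of the groups share mice in this way is not given. Replicates of a group differed beyond sampling noise (chi-square per degree of freedom 15.1 to 545). Groups were compared with edgeR 4.0.16 (filterByExpr, TMM, robust glmQLFit) in R 4.3.3, without pairing of libraries in the main fit. SE was the log2 fold change over the square root of F, and Benjamini-Hochberg adjustment was made at 0.05. The fit was tested on simulated data. Alternatives included DESeq2 1.42.0 and limma-voom (limma 3.58.1). The members, lists, motifs and tests were chosen with earlier results of these data known, although the rule for members uses symbols only. The rule for named genes took all members, Psmb5, Psmb6, Psmb7, Psme1, Psme2, the 3 smallest p-values of each other pathway list, and the 5 most alike genes.

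The titles share replicate numbers 1 to 3, while the descriptions number the AAV-RBM20 samples onward. Deviations from group means correlated at 0.42, 0.20 and 0.48 for same-numbered libraries, all above the set minimum of 0.1. The numbers are treated as pairs only in the fits with the replicate block and where signs of pair differences are flipped. The main fit and the permutation of samples use no pairing. Libraries numbered 1 and 2 also passed this minimum when crossed. The crossed values were 0.13 for GFP 1 against RBM20 2 and 0.22 for GFP 2 against RBM20 1. The check therefore cannot tell which of these libraries belong together. The pairing is an assumption, and all values with the replicate block rest on it. Both libraries numbered 3 stand apart, and their part in these correlations was not tested.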

Additional observations from a re-analysis of the deposited data

How the results depend on the processing

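No alternative brought a member past an adjusted p of 0.05 among 160 refitted values, and the lowest adjusted p was 0.185, for B2m in DESeq2 with the replicate block. Over all genes the count past the threshold was 0 in edgeR, 8 if low counts were kept, 25 if the replicate block was fitted, 75 in DESeq2, 513 in DESeq2 with that block, and 690 if both libraries numbered 3 were left out. Members at an unadjusted p under 0.05 numbered 0 in edgeR, where 1360 of 17222 genes were at that level. Members numbered 2 under the replicate block and 2 in DESeq2 under that block, against 3244 and 2354 of 17222 genes. DESeq2 without the block had 1 member, against 1490 genes. There was 1 member if low counts were kept and 0 to 2 with 1 library left out, for which no share over all genes is given here. The median log2 fold change of the members was 0.38, and -0.088 to 0.58 with 1 library left out, turning without AAV-RBM20 replicate 3.

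With 1 library left out the log2 fold change ranged from -0.16 to 0.62 for H2-K1, from -0.10 to 0.60 for H2-D1, from -0.091 to 0.79 for B2m, from -0.085 to 0.18 for Tapbp, from -0.50 to 0.42 for Psmb8 and from -0.30 to 0.43 for Psmb10. Psmb10 also turned, to -0.03, without AAV-GFP replicate 1. Tap1, Tap2, Psmb9 and Nlrc5 stayed positive, between 0.12 and 1.17. With both libraries numbered 3 left out it was -0.011 for H2-K1, -0.0098 for Tapbp, -0.32 for Psmb8, -0.0029 for Psmb10 and -0.0034 for Nlrc5, and limma-voom gave -0.0094 for Psmb8. The log2 difference of the Psmb8 to Psmb5 ratio ranged from -0.29 to 0.41 with 1 library left out and was -0.265 with both libraries numbered 3 left out. The cause was not tested. The replicate block changed no call of a member. For the ratios it could change none, since neither exact test can reach the threshold. The smallest p is 0.1 when samples are permuted, and 0.25 when the signs of the pair differences are flipped. The lowest member, Psmb9, rested on 85 to 304 counts.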
